A study of Mus musculus with 2 samples.

Results

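The subject here is a group of 10 genes of lung epithelium: the simple epithelial keratins Krt7, Krt8, Krt18 and Krt19, together with Sfn, Lgals3, Anxa1, Anxa2, Clu and Plaur, which are known to be high in a Krt8-high transitional state of alveolar cells. They were taken as a list by gene symbol, and every non-control probe of the array whose RefSeq accession maps to one of these symbols was used. This gave 11 probes for 10 genes, of 55681 probes and 20660 named genes in all; Anxa1 had 2 probes and the other genes 1 each. All 11 probes were well above background on both arrays.

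RNA of lung epithelial cells was measured on a pair of Agilent 1-colour oligonucleotide arrays. One array carried RNA labelled Mob1DKO and the other RNA labelled wild type (WT), both from C57BL/6 mice aged 10 weeks. Mob1DKO is read here, from knowledge of the line, as loss of Mob1a and Mob1b. For alleles, any Cre driver and the number of animals behind each RNA, the labels used here give nothing. The comparison asks how the genotype changes expression in these cells. There was 1 array a group, so no test could be run. The differences of the 10 genes are given with a technical error, and the number of arrays limits their precision.

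Keratins build the intermediate filaments of epithelial cells, and each filament pairs a type I keratin with a type II keratin. Krt8 and Krt18 form the basic pair of simple, single-layered epithelium, with Krt7 and Krt19 added in ducts, airways and other lining cells, while stratified and basal cells use Krt5 and Krt14. After lung injury, alveolar type 2 cells that turn into type 1 cells pass through a state with high Krt8, and this state has been linked to YAP and TAZ. In the Hippo pathway MOB1 proteins switch on LATS kinases, which keep YAP and TAZ away from the TEAD factors that carry them to DNA.

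The promoters of 4 of these genes are shown because the 2 keratins of the basic pair lie next to each other, and because Anxa1 and Anxa2 hold the letters of the TEAD and AP-1 motifs. The windows, from RefSeq on GRCm38.p6, run from 250 bases before to 50 bases after the annotated start, 5′ to 3′ on the gene's strand. Capitals mark exact matches on either strand to 4 motifs. The TEAD core was searched as GGAATG. The AP-1 site was searched as TGANTCA. The GC box was searched as GGGCGG. The TATA box was searched as TATAAA. The windows are chr15:102004293-102004592 on the minus strand for Krt8, chr15:102027966-102028265 on the plus strand for Krt18, chr19:20390622-20390921 on the minus strand for Anxa1 and chr9:69453433-69453732 on the plus strand for Anxa2.
Krt8: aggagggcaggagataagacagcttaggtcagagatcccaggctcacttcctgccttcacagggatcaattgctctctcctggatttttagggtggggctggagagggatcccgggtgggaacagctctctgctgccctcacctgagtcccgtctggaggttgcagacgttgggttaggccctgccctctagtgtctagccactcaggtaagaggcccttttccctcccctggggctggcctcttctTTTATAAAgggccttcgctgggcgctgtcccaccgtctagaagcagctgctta
Krt18: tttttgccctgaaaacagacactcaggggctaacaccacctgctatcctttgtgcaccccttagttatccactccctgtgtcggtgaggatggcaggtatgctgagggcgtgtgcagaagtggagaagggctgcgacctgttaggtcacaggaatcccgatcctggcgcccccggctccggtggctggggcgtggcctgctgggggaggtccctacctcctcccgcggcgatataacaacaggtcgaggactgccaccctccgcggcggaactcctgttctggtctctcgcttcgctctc
Anxa1: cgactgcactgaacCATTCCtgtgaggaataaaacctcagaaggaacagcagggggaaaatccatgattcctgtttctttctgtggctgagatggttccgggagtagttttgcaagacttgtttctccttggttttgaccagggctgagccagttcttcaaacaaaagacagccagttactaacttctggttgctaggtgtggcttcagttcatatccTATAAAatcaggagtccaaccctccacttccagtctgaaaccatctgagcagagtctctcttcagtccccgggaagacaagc
Anxa2: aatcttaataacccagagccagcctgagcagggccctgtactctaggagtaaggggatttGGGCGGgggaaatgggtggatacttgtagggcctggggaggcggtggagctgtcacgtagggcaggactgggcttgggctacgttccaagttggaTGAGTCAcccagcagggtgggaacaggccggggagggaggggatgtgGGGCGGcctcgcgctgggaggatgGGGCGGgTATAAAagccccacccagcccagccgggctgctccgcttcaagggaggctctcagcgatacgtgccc

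Of the 10 genes, 8 had a promoter in the table. The TEAD letters occurred in 1 of these 8, Anxa1, at bases 15 to 20 of its window, against 14.7% of 32851 promoters of the same length. The AP-1 letters occurred in 2 of the 8, Anxa2, at bases 156 to 162, and Plaur, against 7.81% of promoters. The GC box letters occurred in 4 of the 8, Krt7, Lgals3, Anxa2 and Plaur, against 35.7% of promoters. The TATA letters occurred in 3 of the 8, Krt8, Anxa1 and Anxa2, against 13.6%. In Krt8 they matched on both strands in an overlapping stretch, bases 248 to 253 and 250 to 255, and the Krt18 window held none of the 4 motifs. A match is a description of these letters and not a binding site.

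The 10 genes differed little between the Mob1DKO and the WT array. None of them reached 2-fold, and their log2 differences, Mob1DKO minus WT, lay between −0.23 for Clu and 0.15 for Krt7. Levels are log2 values of the processed signal above the array's 75th percentile, which was 291 in Mob1DKO and 155 in WT. A gene was called when it differed by at least 1 on this scale, which is 2-fold, and its spot on the brighter array was well above background. By this rule 6.7% of 15099 measured genes were called, 3.79% as higher and 2.91% as lower in Mob1DKO. The counts were 572 higher and 439 lower, against 731 and 358 when scaled to housekeeping genes and 99 and 172 with model-based background correction. Among the 1904 genes with a mean level in the range of these 10 genes, 1.16% were called, so 0 of 10 is close to the background.

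**Figure D1:**
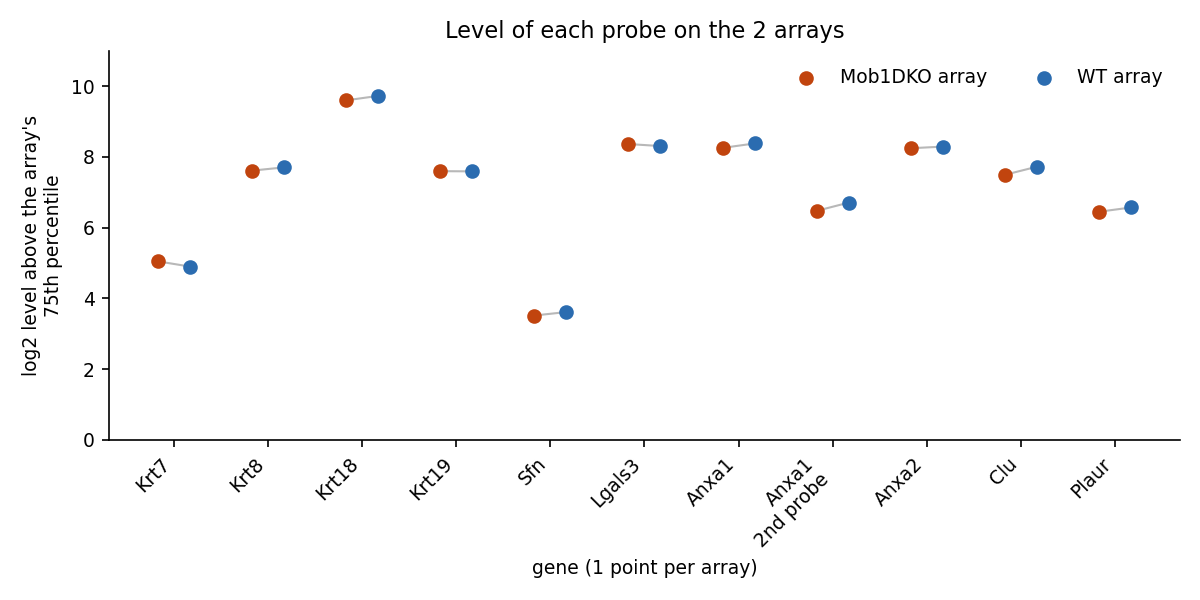
Log2 level of each of the 11 probes above the array's 75th percentile, with the Mob1DKO array left and the WT array right for each probe. The paired points nearly coincide for every probe, and the widest gap is 0.23. Heights of different probes are not comparable with each other.

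The main pair of simple keratins stayed close. Krt8, the type II partner, had a processed signal of 56936 in Mob1DKO and 32299 in WT, which gave levels of 7.61 in Mob1DKO and 7.70 in WT after scaling. Its log2 difference was −0.09. Krt18, the type I partner, had levels of 9.60 in Mob1DKO and 9.72 in WT, and the log2 difference was −0.13. The log2 differences of the 2 partners were 0.03 apart. The Krt18 spot was 3047 times its local background on the Mob1DKO array and 1793 times on the WT array. No spot on either array was saturated.

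Krt7 had the widest difference of the 4 simple keratins and Krt19 the narrowest, 0.14 apart. Krt7, a type II keratin of ducts and lining epithelium, had levels of 5.05 in Mob1DKO and 4.90 in WT, and the log2 difference was 0.15. Krt19, the small type I keratin without a tail domain, had levels of 7.60 in Mob1DKO and 7.59 in WT, and the log2 difference was 0.01. Of the 4 simple keratins, 2 had values above 0 and 2 below, with a median of −0.04.

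Of the other 6 genes, 1 had a value above 0 and 5 below, with a median of −0.11. Sfn encodes 14-3-3 sigma, an epithelial adaptor that binds phosphorylated proteins and is induced by p53. Its levels were 3.52 in Mob1DKO and 3.61 in WT, and the log2 difference was −0.10. Lgals3, a lectin that binds galactosides and is abundant in macrophages as well as epithelium, had levels of 8.36 in Mob1DKO and 8.31 in WT, and the log2 difference was 0.06. Both genes were thus at nearly the same level on the 2 arrays.

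The annexins bind membranes in the presence of calcium. Anxa1, known for its anti-inflammatory role, had levels of 8.25 in Mob1DKO and 8.38 in WT on its brighter probe, a difference of −0.13. Its second probe had levels of 6.47 in Mob1DKO and 6.71 in WT, and the log2 difference was −0.23. Both probes of Anxa1 therefore lay on the same side of 0. Anxa2, which recruits plasminogen to the cell surface together with S100a10, had levels of 8.24 in Mob1DKO and 8.29 in WT, and the log2 difference was −0.05.

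Clu and Plaur act outside the cell or on its surface. Clu, a secreted chaperone also called clusterin, had levels of 7.49 in Mob1DKO and 7.72 in WT, and the log2 difference was −0.23, the widest of the 10 genes. Plaur, the receptor that holds urokinase at the cell surface, had levels of 6.45 in Mob1DKO and 6.57 in WT, and the log2 difference was −0.12.

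Before scaling, the Mob1DKO signal of the 11 probes was 1.60 to 2.08 times the WT signal, and the 75th percentiles of the arrays stood in a ratio of 1.88. The lowest ratio was that of the second Anxa1 probe and the highest that of Krt7.

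These sizes are near the technical error of a single spot. Each of the 11 probes was printed once, and the error comes from 169 other probes above the 75th percentile that were printed at 10 spots, whose differences had an SD of 0.089. The differences of 3 of the 10 genes were within 1 such SD and those of 9 within 2; the exception was Clu, with an interval of 2 SD from −0.41 to −0.05. The 34 such probes in the level range of the 10 genes had a smaller SD of 0.0567, by which 5 of the 10 genes lay beyond 2 SD: Clu, Krt7, Krt18, Anxa1 and Plaur. With the SD of 0.089 the intervals of the other 9 genes spanned 0, for example from −0.27 to 0.09 for Krt8, from −0.30 to 0.05 for Krt18, from −0.03 to 0.32 for Krt7 and from −0.17 to 0.18 for Krt19. The interval of Sfn ran from −0.28 to 0.08, that of Lgals3 from −0.12 to 0.24, of Anxa2 from −0.22 to 0.13 and of Plaur from −0.30 to 0.06. The second Anxa1 probe, from −0.41 to −0.06, was beyond 2 SD by either SD. The scanner software's own error model gave an SD of 0.204 for every one of these differences. Neither error holds the variation between animals or RNA preparations, so no difference here is shown to go with genotype.

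Very bright genes as a whole tended to be lower on the Mob1DKO array, and the brightest of the 10 genes, down to Clu, are given beside them. Of 1178 genes with a mean level from 3 to 4, the median difference was 0.01, whereas it was −0.15 over 65 genes from 8 to 9 and −0.21 over 23 genes from 9 to 10, of which 22 lay below 0. The 20 genes within 0.5 of the level of Krt18 had a median of −0.24, against −0.13 for Krt18 itself. The 72 genes near Lgals3 had a median of −0.13, against 0.06 for Lgals3. Near Anxa1, 73 genes had a median of −0.12, against −0.13 for Anxa1. Near Anxa2, 74 genes had a median of −0.12, against −0.05 for Anxa2. The 98 genes near Krt8 had a median of −0.07, against −0.09 for Krt8. The 98 genes near Clu had a median of −0.06, against −0.23 for Clu. Over all measured genes, 54.7% differed by no more than the widest of the 10 genes, and over genes in their range of level 70.0% did.

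**Figure D2:**
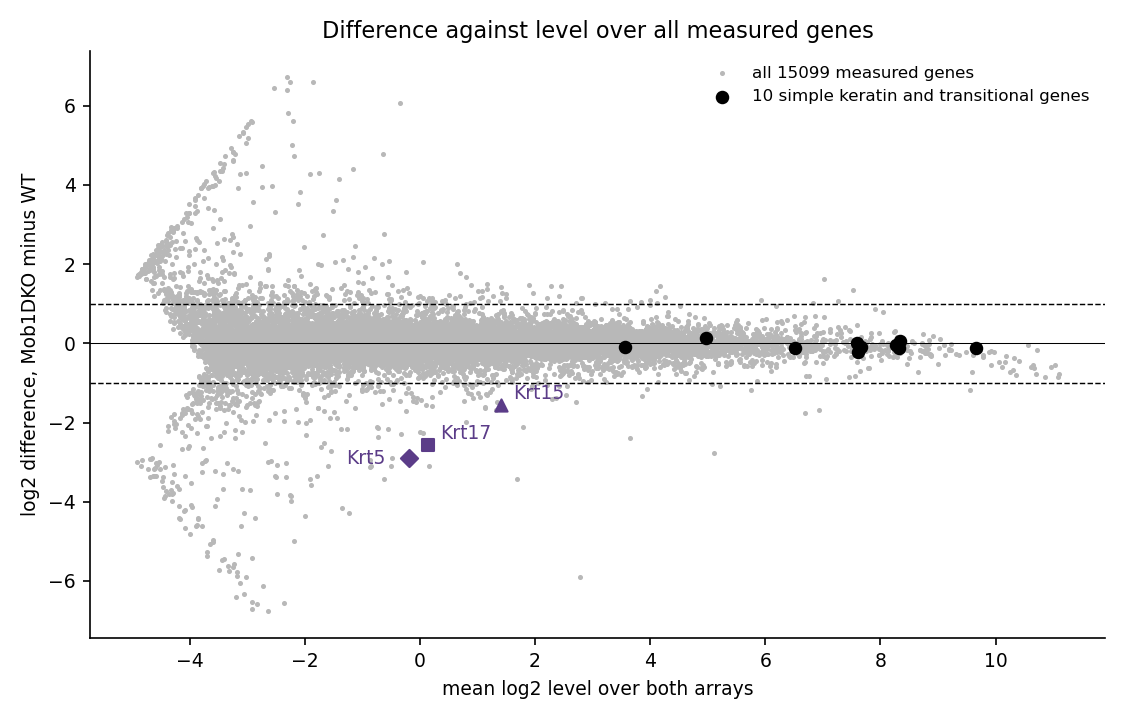
Log2 difference, Mob1DKO minus WT, against the mean log2 level over both arrays for each of 15099 measured genes (grey), with the 10 genes in black and the basal keratins Krt5, Krt17 and Krt15 in purple. Dashed lines mark 2-fold. The 10 genes lie along 0 at the bright end, while the 3 basal keratins lie below −1.

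The sign of 6 of the 10 differences, taken relative to the median of all genes, depended on the processing. It depended on the scaling between arrays for 4 of them (Krt8, Krt18, Krt19 and Anxa2). For Sfn it depended on the background correction or pseudocount and for Anxa1 on the background correction. On this relative scale the reported Krt19 value was −0.02. Without that subtraction, scaling to housekeeping genes also moved Sfn to 0.05, Anxa1 to 0.02 and Plaur to 0.03. With no scaling every difference lay above 0, with Clu at 0.68. Relative to the median of all genes, Krt7 ranged from 0.12 to 0.26 and Lgals3 from 0.03 to 0.24 over 11 other settings, both above 0 in all 11. Clu ranged from −0.25 to −0.01 and Plaur from −0.14 to −0.0001, both below 0 in all 11. Scaling by the median of all probes, by housekeeping genes or not at all cannot change these relative values. The filters on spots and probes hardly moved these genes, and the authors' deposited table repeated the quantile values. Only quantiles, loess, the model-based background correction and the pseudocount thus bear on these signs. Among the genes that took both signs, Krt18 ranged from −0.15 to 0.19 and Krt8 from −0.12 to 0.06. None of the 10 genes reached 2-fold relative to all genes under any of the 12 settings.

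**Figure D3:**
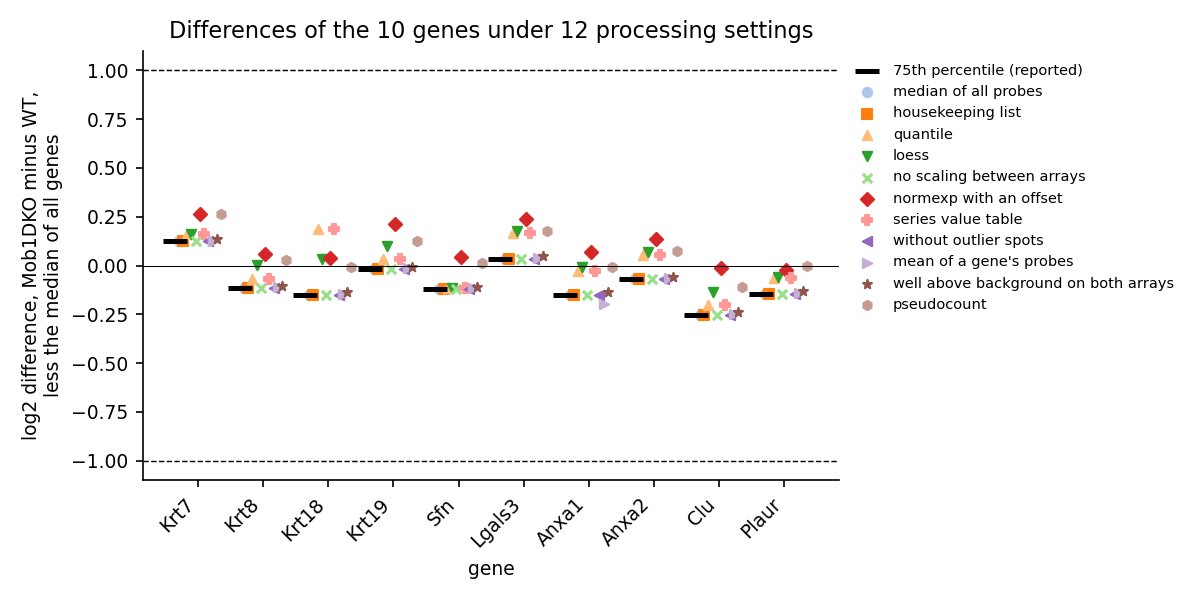
Log2 difference, Mob1DKO minus WT, less the median of all genes, for each of the 10 genes under the reported scaling (black bar) and 11 other settings (symbols). Dashed lines mark 2-fold; all points lie between −0.25 and 0.26.

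The technical error is larger for fainter genes than for the 10 genes: at 102 probes printed at 10 spots, below the 75th percentile but seen above background on each array, the SD of a difference was 0.36. Over all 230 such probes, whether above background or not, it was 0.674. The values of faint genes given from here on carry an error of that size.

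Some basal keratins passed 2-fold, while no simple keratin did. Of 11 measured keratins of basal and stratified epithelium, 3 were lower and none was higher in Mob1DKO. Of all 15099 measured genes, 2.91% were called lower and 3.79% higher. Krt5, the type II keratin of basal cells, had levels of −1.64 in Mob1DKO and 1.25 in WT, and the log2 difference was −2.89. Krt17, which is induced in basal and injured epithelium, had levels of −1.15 in Mob1DKO and 1.42 in WT, and the log2 difference was −2.57. For Krt15, another basal keratin, they were 0.63 in Mob1DKO and 2.19 in WT, and the log2 difference was −1.57. Krt14, the usual partner of Krt5, differed by −0.55 and was not called. All 3 calls held with the model-based background correction, and the Krt5 difference ranged from −2.93 to −2.12 relative to all genes over the settings. Krt17 ranged from −2.61 to −1.97 and Krt15 from −1.61 to −1.30. Krt8 minus Krt5 came to 2.80, a measure of how unequally these 2 probes differed.

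The simple keratins lie in the 2 keratin clusters, beside genes that were called and genes that were not. On chromosome 15 Krt8 and Krt18 are immediate neighbours among protein-coding genes. The next gene beyond Krt8 is Krt78, an epidermal type II keratin with levels of 1.19 in Mob1DKO and 0.03 in WT, so that it was called at 1.16; its second probe differed by 1.13. Beyond Krt18 lies Eif4b, a translation initiation factor, at −0.03. On chromosome 11 the immediate neighbours of Krt19 are the called Krt15 and the uncalled Krt9, at 0.12, and Krt17 lies 4 genes away. Over the family, 53 keratin genes were named on the array and 31 were well above background on both arrays, of which 1 was higher (Krt78) and 3 were lower. A list of 8 further keratins and keratinocyte-associated genes held 1 called gene, Krt78, with a median of −0.18, and Krt23 in it differed by −0.47.

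The filament anchors and the other intermediate filament genes had no called member among 11, with a median of −0.06. Lmnb1, a lamin of the nuclear envelope, differed by 0.71 and Nes, a filament gene of progenitor cells, by −0.60. Vim, the filament protein of mesenchymal cells that epithelium gains when it loses its character, had levels of 3.34 in Mob1DKO and 3.29 in WT, and the log2 difference was 0.05.

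**Figure D4:**
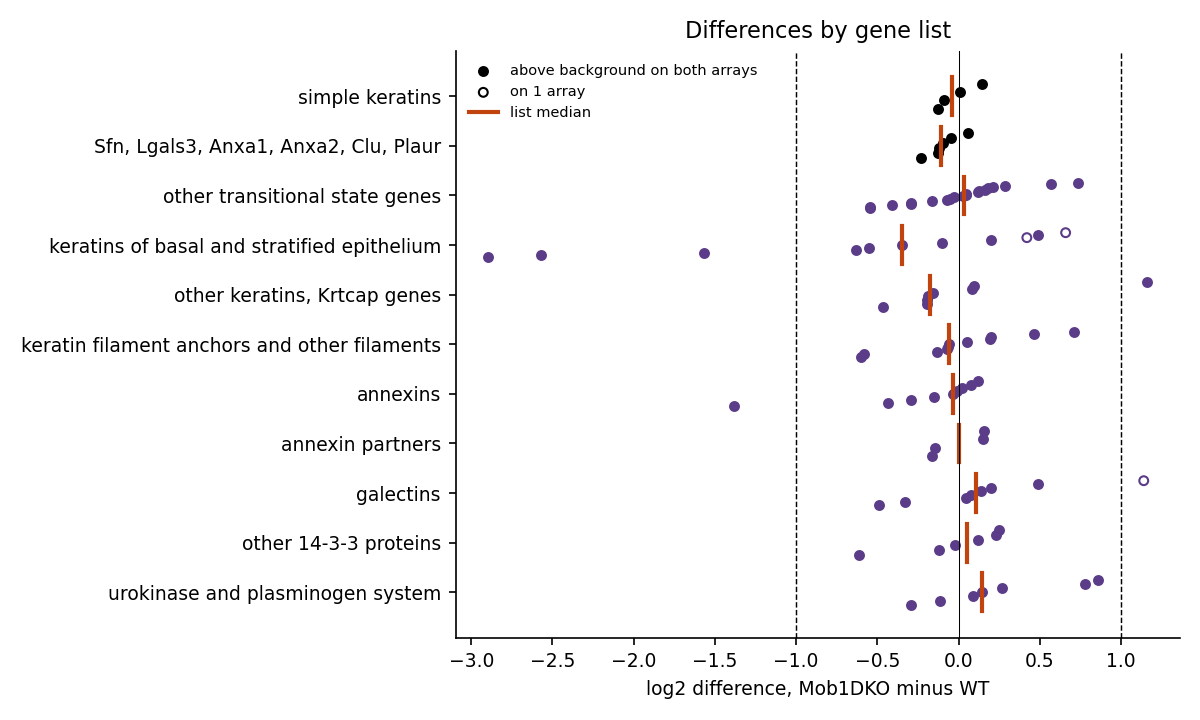
Log2 difference, Mob1DKO minus WT, of each measured gene of 11 lists; filled points were well above background on both arrays, open points on 1, red bars are list medians and dashed lines mark 2-fold. The simple keratins and the other 6 genes cluster at 0, and the points below −1 are Krt5, Krt17, Krt15 and Anxa10. The points above 1 are Krt78 and Lgals12, the latter open.

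Further genes of the transitional state were measured for all 20 listed, and none was called. Their values were above 0 for 11 and below 0 for 9, with a median of 0.03. Areg, a ligand of the EGF receptor and a known YAP target, had levels of 5.04 in Mob1DKO and 4.30 in WT, and the log2 difference was 0.73. Cdkn2b, a cell cycle inhibitor, differed by 0.57, but by −0.11 on its second probe. Cldn4, a tight junction protein that marks this state, had levels of 2.96 in Mob1DKO and 3.50 in WT, and the log2 difference was −0.54, with −0.25 on its second probe. Cdkn1a, the cell cycle inhibitor induced by p53, differed by 0.18. The widest values of this list thus pointed both ways.

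Among partners and relatives of the 10 genes few were called. Of 9 measured annexins 1 was called: Anxa10, faint on both arrays, had levels of −3.61 in Mob1DKO and −2.23 in WT, and the log2 difference was −1.38. Relative to all genes it was −0.78, and so past 2-fold no longer, with the model-based background correction. Anxa9 differed by −0.44, and the median was −0.04. S100a10, the partner of Anxa2, had levels of 3.62 in Mob1DKO and 3.47 in WT, and the log2 difference was 0.15. Fpr2, a receptor for Anxa1, was on neither array well above background. S100a6 and Ahnak differed by −0.16 and 0.16, and none of the 4 measured annexin partners was called. The fainter Ahnak probes differed by 0.29, 0.07 and −0.27, so its probes disagree in sign.

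Of 8 measured galectins, 1 was called higher: Lgals12, seen above background in Mob1DKO alone, was at least 1.05-fold higher. With the model-based background correction it differed by −0.30 and was not called. Lgals2 differed by −0.49, Lgals4 by 0.49 and Lgals3bp, a secreted ligand of galectin-3, by −0.33. None of the 6 other 14-3-3 genes was called, with Ywhaz at −0.61 and Ywhah at 0.25; of the other Ywhaz probes, 1 differed by −0.33 and 1 by 0.08.

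In the urokinase system none of 7 measured genes was called and the median was 0.14. Plau, the urokinase that binds Plaur, had levels of 2.36 in Mob1DKO and 2.65 in WT, and the log2 difference was −0.29 beside −0.12 for its receptor. Plat, tissue plasminogen activator, differed by 0.86.

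The preparations and the labels were checked as far as the probes allow. All 8 epithelial genes were well above background, with Epcam at 0.18, Cdh1 at 0.10, Cldn7 at 0.34 and Esrp1 at −0.19. Mob1b had levels of −2.98 in Mob1DKO and −0.98 in WT on 1 probe, and a log2 difference of −2.70 on the other. Mob1a, faint on both arrays, differed by 0.07. Where the Mob1a probe lies relative to any deleted part is unknown here, so it checks nothing. Xist, an RNA of female cells, had levels of −1.48 in Mob1DKO and 0.82 in WT. Genotype and sex of the animals cannot be told apart here.

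Macrophages express Lgals3, Anxa1 and Plaur, and mesothelium expresses simple keratins, so their markers are given beside these genes. Of 12 macrophage and monocyte markers, 6 were measured, 3 above and 3 below 0. Their summed level (linear, in units of the 75th percentile) was 262 in Mob1DKO and 272 in WT. Most of both sums came from 1 Itgam probe, with levels of 7.88 in Mob1DKO and 7.93 in WT. The other Itgam probes were far fainter, at −0.10 and −2.70 in Mob1DKO and −0.46 and −3.85 in WT. The measured ones were Itgax at 0.53, Cd14 at −0.33, Itgam at −0.05, Csf1r at −0.01, Marco at 0.19 and Fcgr1, above background in Mob1DKO alone, at 0.41. On neither array were Ptprc, Mrc1, Adgre1 and Siglecf well above background, and Cd68 and Ly6c2 had no named probe. All 6 mesothelial markers were measured and none was called, with sums of 48.9 in Mob1DKO and 57.2 in WT. Msln differed by −0.25, Bnc1 by −0.71 and Wt1 by 0.52. Of 5 neutrophil genes, 3 were called higher, Mpo, S100a9 and S100a8; all 3 were faint and seen on the Mob1DKO array only. None of the 3 was called with the model-based background correction, where they differed by −0.04, −0.53 and −0.39. The neutrophil sums were 276.5 in Mob1DKO and 228.7 in WT, nearly all from Csf3r, with levels of 8.11 in Mob1DKO and 7.83 in WT. The bound for Mpo was 1.05-fold, and S100a9 and S100a8 had none.

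Of 5 measured basal cell markers, 2 were lower (Krt5 and Krt15), while Trp63, their defining transcription factor, differed by −0.23 on its brighter probe. The second Trp63 probe was well above background in WT alone and differed by −3.36, so its probes disagree. No alveolar type 1 or type 2 marker was called, with Akap5 at 0.84, Cav1 at −0.43, Abca3 at −0.90 and Sftpc at −0.78, and medians of 0.09 for type 1 and −0.19 for type 2. Lum was at least 2.22-fold higher, but differed by 0.06 and was not called with the model-based background correction, and Acta2 and Tagln each differed by −0.97. Of the 15 housekeeping genes none was called, with Actb at −0.79 and Ywhaz at −0.61. No endothelial marker of 4 was called, with Kdr at −0.60 (0.05 on its second probe) and Egfl7 at 0.53. All 5 measured globin genes were lower, Hbb-bt by at least 19.4-fold, Hbb-b2 by at least 5.78-fold, Hbb-bs by at least 3.23-fold and Hba-a2 by −3.42 in log2. With the model-based background correction all 5 were still called lower. The log2 differences were then −2.185 for Hbb-bt, −1.405 for Hbb-b2, −1.017 for Hbb-bs and −2.991 for Hba-a2. The bounds thus hold for the reported processing only. The part of these other cells in the values of the 10 genes was not tested. In bulk RNA, fewer cells of a type and less RNA per cell cannot be told apart.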

How the data were processed

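Agilent Feature Extraction 10.7.1.1 made the deposited intensity values, per the file headers, while the submitters' processing notes name 9.5.1.1. Per the file headers, processed intensity had its background subtracted within each array; the grid build is mm9. Both arrays lie on 1 slide. The authors' deposited series table also holds intensity on a linear scale (median 27.3 for Mob1DKO and for WT, not centred by gene, ranks within an array as in the scanner signal). Its scaling between arrays is read here from its values only. For each of the 10 genes its difference equalled that with quantile scaling, for example 0.2107 for Krt18 in both. It served as an alternative, but for these genes it repeats the quantile setting.

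Spots of a probe were averaged, control spots left out, log2 taken and the array's 75th percentile subtracted. Of 28685 probes with a RefSeq accession, 27235 were named through a table on GRCm38.p6, used for names and neighbours. A gene with several probes took the one with the highest mean level among probes above background on 1 array or both. A gene seen on 1 array has a bound against the lowest signal well above background, or against its own signal on the other array where that is higher. Spots were well above background on 58.6% of probes for Mob1DKO and 53.1% for WT. Alternatives were scaling by the median of all probes, 15 housekeeping genes, quantiles, loess (span 0.3) or none; normexp on the median spot signal with an offset of 50 (limma 3.58.1), since the mean signal is not in the files used; a pseudocount of 32; and filters on spots and probes. The 10 genes, the gene lists and the rule for named genes were chosen with earlier results of these data known. Named from each list were up to 4 called genes, or, with under 2 called, the 2 with the widest difference on both arrays, and a fixed set of partners and markers; Eif4b, Krt9, Trp63, the macrophage genes other than Itgax, Cd14, Ptprc and Cd68, Csf3r, and the keratins seen in Mob1DKO alone were named after their values were seen. One gene that the rule names is not reported here.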

Additional observations from a re-analysis of the deposited data

How the results depend on the processing

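No paired analysis was possible because each group has 1 array, and no array could be left out. The count of called genes among the 10 stayed at 0 under 10 of the 11 other settings. With no scaling between arrays it was 1 (Krt7), where the median of all genes moved to 0.93 and that of the 10 genes to 0.81. The median of the 10 genes was −0.10 as reported and moved to 0.0537 with the housekeeping list (all genes 0.17), 0.0272 with quantiles, 0.0509 with loess, 0.0635 with normexp, 0.0272 in the series value table and 0.0199 with the pseudocount. The housekeeping list and the absence of scaling moved all genes alike, and relative to the median of all genes the 10 genes stayed at −0.12 there. That relative median was 0.0023 with quantiles, 0.0201 with loess, 0.0641 with normexp and 0.0206 with the pseudocount. The settings that subtract a level trend or add an offset treat bright genes differently by construction. Over the 8 settings that can change values relative to all genes, 45 of 80 relative values of the 10 genes lay within 1 technical SD of the reported one and 35 further away. The 8 include the filters on spots and probes, which could hardly move these genes, and all their values are among the 45. They also include the series value table, which repeats the quantile setting. The share within 1 SD is thus no measure of stability. Over all genes, 572 were called higher and 439 lower as reported; the housekeeping list gave 731 and 358, no scaling 6149 and 174, normexp 99 and 172, the pseudocount 139 and 290, and genes well above background on both arrays 174 and 198. Leaving out outlier spots or averaging probes changed no count of the 10 genes. Signal over background does not limit these genes: the faintest spot, Sfn on the WT array, was 34.7 times its background.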

Other observations

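Of the 53 keratin genes named on the array, 7 were seen above background in Mob1DKO alone and none in WT alone, while 15 were seen on neither array. These 7 were Krt1, Krt4, Krt35, Krt75, Krt76, Krt82 and Krt87, keratins of skin, hair or stratified mucosa. By the 2-fold rule 5 of them were higher in Mob1DKO, but the bound reached 2-fold for Krt75 alone. Its 2.13-fold is its measured ratio, because its WT signal was above the lowest signal well above background. The bounds of Krt35, Krt76, Krt82 and Krt87 were 1.01-fold, 1.25-fold, 1.02-fold and 1.15-fold. With the model-based background correction none of these 5 was called, and they differed by −0.36 (Krt82) to −0.01 (Krt75). Of all probes, 58.6% passed the background flag in Mob1DKO and 53.1% in WT, and its part in this count was not tested. Of 15099 measured genes, 13866 were well above background on both arrays. With that filter 174 genes were called higher and 198 lower, against 572 and 439 without it. Calls were thus frequent among genes seen on 1 array, keratins or not.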
